A study of Mus musculus with 15 samples.

Results

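Genes of ion and water transport in the retinal pigment epithelium (RPE) are described here: Best1, Kcnj13, Clcn2, Clic6, Aqp1, Atp1b1, Slc12a2, Slc4a2 and Slc26a7. They were chosen by symbol, and all 9 were found among the 46078 genes of the deposited count table. The RPE is the pigmented cell layer behind the photoreceptors. Its RNA was sequenced in 15 libraries from female mice at postnatal day 14, with extraction beginning 2 hours after light onset. By genotype there were 4 libraries of Mertk KO and 4 of Mertk WT, beside 3 of Bai1 Tg pos and 4 of Bai1 Tg neg, both of them wild type for Mertk. Mertk encodes a receptor tyrosine kinase with which the RPE takes up shed photoreceptor tips, and Bai1, gene symbol Adgrb1, encodes an adhesion receptor that recognises phosphatidylserine. The strain given for all 4 groups, controls included, is a mixture of C57BL/6J and B6;129-Mertktm1Grl/J. Which promoter drives the Bai1 transgene, and whether libraries came from separate animals, is not stated in the sources used here. P-values therefore measure only how these libraries differ among themselves, and part of that may be technical.

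The RPE moves chloride, potassium, bicarbonate and water from the subretinal space towards the choroid. In most epithelia the sodium pump sits in the basolateral membrane, but in the RPE it sits in the apical membrane that faces the photoreceptors. The sodium gradient it makes drives chloride uptake through the cotransporter Slc12a2, while apical potassium channels return potassium to the subretinal space. Chloride channels and anion exchangers of the basolateral membrane complete the route, and water follows the salt.

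Totals ranged from 9591129 to 20024507 counts per library. Values are in CPM, counts scaled to library size with TMM factors, for comparisons between libraries, and in TPM, which also divides by exon length, for comparisons between genes. Rpe65, the retinoid isomerase of the RPE, was at 4175 to 6667 CPM, and 14 of 14 RPE markers, led by Ttr and Rgr, averaged at least 1 CPM. All 14 rod markers were detected, and they summed to 1033 to 1676 CPM in Mertk KO, 928 to 3811 CPM in Mertk WT, 271 to 819 CPM in Bai1 Tg pos and 225 to 489 CPM in Bai1 Tg neg. Fibroblast markers, led by Dcn and Col1a1, summed to 2.94 to 51.5 CPM, and endothelial markers, led by Kdr and Egfl7, to 7.84 to 11.7 CPM in Mertk KO, 13 to 23.2 CPM in Mertk WT, beside 10.9 to 17.2 CPM over the Bai1 libraries. Of 12 macrophage markers only Csf1r, at 657 CPM on average, and Cd68, at 9.24 CPM, averaged at least 1 CPM, and 2 to 10 of the 12 were at 0 in each library. In the genotype check, Mertk KO libraries held 155 to 196 CPM of Mertk, against 233 to 262 CPM in controls. The Mertk transcript was thus still counted in the libraries labelled Mertk KO. Which part of the gene the allele removes is not stated in the sources used here, and a count over the whole gene does not test for it. Adgrb1 was at 166 to 170 CPM in Bai1 Tg pos, but the library labelled Bai1 Tg neg 4 held 144 CPM, so the transgene values of the 9 genes are also given without it. Among the 3 other Bai1 Tg neg libraries the highest Adgrb1 value was 0.142 CPM. In bulk RNA, fewer cells of a type and less RNA per cell cannot be told apart.

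Promoter windows from RefSeq (GRCm38.p6) were at hand for 6 of the 9 genes: Best1, Kcnj13, Clcn2, Aqp1, Atp1b1 and Slc4a2. The 250 bases before the RefSeq start site of 4 of them are shown, since these are the 2 least abundant genes (Best1 and Aqp1) and 2 of the 3 most abundant (Kcnj13 and Atp1b1). Each is written on the strand of its gene, and capitals mark any match, on either strand, to 5 motifs: CACGTG and CATGTG (E-box forms bound by MITF-type factors), TAATCC (OTX core), ATTGTT (SOX core) and GGGCGG (GC box).
Best1, chr19:10001634-10001883, minus strand: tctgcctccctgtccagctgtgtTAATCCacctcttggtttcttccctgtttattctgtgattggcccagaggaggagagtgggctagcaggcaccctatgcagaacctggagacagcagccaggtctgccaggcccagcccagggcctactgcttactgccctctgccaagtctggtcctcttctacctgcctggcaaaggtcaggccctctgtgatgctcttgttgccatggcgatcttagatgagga
Aqp1, chr6:55336049-55336298, plus strand: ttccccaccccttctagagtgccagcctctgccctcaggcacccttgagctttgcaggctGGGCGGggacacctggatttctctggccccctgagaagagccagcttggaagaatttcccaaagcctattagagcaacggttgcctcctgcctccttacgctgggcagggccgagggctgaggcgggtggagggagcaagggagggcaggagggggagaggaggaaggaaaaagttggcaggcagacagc
Kcnj13, chr1:87394730-87394979, minus strand: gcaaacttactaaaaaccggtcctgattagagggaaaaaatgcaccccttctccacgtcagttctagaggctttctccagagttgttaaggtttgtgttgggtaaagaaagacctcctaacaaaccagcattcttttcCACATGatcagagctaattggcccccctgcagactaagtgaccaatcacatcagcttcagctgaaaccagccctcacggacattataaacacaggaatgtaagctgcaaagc
Atp1b1, chr1:164458356-164458605, minus strand: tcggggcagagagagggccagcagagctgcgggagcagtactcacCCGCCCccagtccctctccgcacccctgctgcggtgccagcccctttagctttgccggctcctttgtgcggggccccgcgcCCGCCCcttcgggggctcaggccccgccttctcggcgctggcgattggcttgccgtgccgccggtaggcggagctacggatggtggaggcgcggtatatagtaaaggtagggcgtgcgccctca
None of these motifs overlapped another. Best1 held 1 TAATCC, its first base 227 bases before the start site (position -227), a motif found in 7.06% of all 32851 windows of the table. Kcnj13 held CACATG, the reverse complement of CATGTG, at -112, and 14.2% of windows hold that motif. The GC box, present in 35.7% of windows, occurred once in Aqp1 (-190), once in Clcn2 (-37) and at 2 places in Atp1b1 (-205 and -124). No match to any of the 5 was found in Slc4a2, for which the table lists 2 start sites. CACGTG (7.15% of windows) and ATTGTT (10.7%) matched none of the 6 genes. CpG pairs in the 300-base window, which adds 50 bases from the start on, numbered 1 in Best1, 5 in Kcnj13, 8 in Aqp1, 13 in Clcn2, 31 in Atp1b1, and 37 or 16 in Slc4a2, against a median of 7 over all windows.

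Per exon length, the 9 genes spanned from 1302 TPM to 1.03 TPM. Clic6 led with 1302 ± 80.7 TPM (SD, n = 15) and ranked 71st from the top of the 25132 genes detected. Atp1b1 followed at 921 ± 101 TPM, Kcnj13 at 726 ± 140 TPM and Slc4a2 at 448 ± 50 TPM. Each of these 4 genes stood above at least 99% of the detected genes by TPM. Slc26a7 stood at 273 ± 33.4 TPM, Clcn2 at 207 ± 17.9 TPM and Slc12a2 at 88.2 ± 7.51 TPM. Aqp1 was 13.2 times lower than Slc12a2, at 6.67 ± 3.04 TPM, and Best1 was at 1.03 ± 0.684 TPM, ranks 9583 and 13940. The order was the same in each of the 4 groups and with another scaling (RLE). Over all libraries the ranges of Clic6 and Atp1b1, of Atp1b1 and Kcnj13, and of Slc26a7 and Clcn2 overlapped, and the other neighbours did not. Within a library, Slc26a7 exceeded Clcn2 in 13 of 15 and every other neighbouring pair kept its order in 15 of 15.

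**Figure D1:**
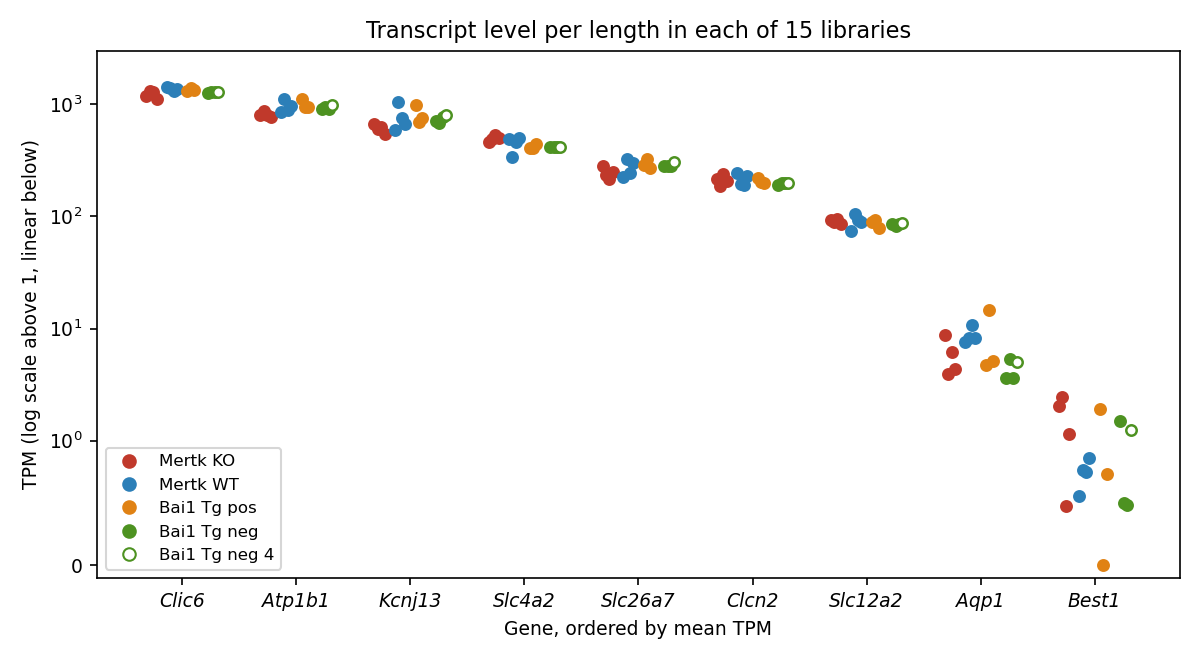
TPM of each gene (vertical axis, log scale above 1 and linear below) in each of 15 libraries (points, coloured by group; the open point is the library labelled Bai1 Tg neg 4), genes ordered by mean TPM. Clic6 lies between 1108 and 1415 TPM and Best1 between 0 and 2.47 TPM.

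Counting used no strand, so fragments in exons shared with a gene on the opposite strand cannot be told apart. Such shared bases make up 49.1% of the counted exon length of Kcnj13 (623 of 1270 bases, with Gigyf2), 18.7% of Atp1b1 (with Nme7) and 13.7% of Slc4a2 (with Fastk). For Clcn2 the share is 1.41% with Fam131a and 1.36% with Polr2h, and for Best1, Clic6, Aqp1, Slc12a2 and Slc26a7 no other gene shares exon bases. The neighbours were far lower than the genes they overlap: Gigyf2 averaged 72.1, Fastk 57 and Nme7 9.68 CPM without scaling. The counting command, per the file header, did not set the option that assigns such fragments to both genes. The TPM of Kcnj13, Atp1b1 and Slc4a2 may thus be understated, and their places in the order by TPM could change. That the order was the same in each group and with RLE scaling does not test this.

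The channels come first. Best1 (ENSMUSG00000037418, GRCm38 chromosome 19, 9985174 to 10001633, minus strand) encodes bestrophin 1, a calcium-activated anion channel of the RPE basolateral membrane whose mutation causes Best macular dystrophy. It was close to undetected: 170 counts in all 15 libraries together, or 0.731 CPM with a 95% exact Poisson interval of 0.626 to 0.85, which covers counting error only. The counts were 27, 27, 5 and 14 in Mertk KO 1 to 4, 6, 10, 8 and 6 in Mertk WT 1 to 4, 14, 0 and 10 in Bai1 Tg pos 1 to 3, and 14, 6, 5 and 18 in Bai1 Tg neg 1 to 4. The 2 highest libraries were both Mertk KO, but another Mertk KO library was among the lowest. For the count of 0 in Bai1 Tg pos 2 the upper limit of the same interval is 0.222 CPM. The related bestrophins were also low, with Best2 at 0.145 CPM and Best3 at 0.894 CPM on average.

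Kcnj13 (ENSMUSG00000079436, chromosome 1, 87386363 to 87394729, minus strand) encodes the inwardly rectifying potassium channel of the RPE apical membrane. It stood at 279, 262, 267 and 230 CPM in Mertk KO and at 254, 444, 319 and 283 CPM in Mertk WT. In Bai1 Tg pos it was at 419, 292 and 326 CPM, and in Bai1 Tg neg at 304, 289, 330 and 338 CPM. Mertk WT 2 and Bai1 Tg pos 1 stood above all other libraries, and the ranges of the groups overlapped. Kcnj10, the potassium channel typical of Mueller glia, was at 0.223 CPM on average.

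Clcn2 (ENSMUSG00000022843, chromosome 16, 20702964 to 20717746, minus strand) encodes a voltage-gated chloride channel whose loss in mice leads to retinal degeneration. It was at 428, 383, 487 and 421 CPM in Mertk KO, compared with 499, 388, 380 and 458 CPM in Mertk WT. It stood at 439, 406 and 407 CPM in Bai1 Tg pos, compared with 386, 394, 404 and 404 CPM in Bai1 Tg neg. All 15 values lay between 380 and 499 CPM. The Mertk libraries spread over that whole range, and the Bai1 libraries stayed in its lower part.

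Clic6 (ENSMUSG00000022949, chromosome 16, 92485736 to 92541243, plus strand) belongs to the chloride intracellular channel family. Its values were 1546, 1739, 1695 and 1460 CPM in Mertk KO, compared with 1873, 1819, 1715 and 1792 CPM in Mertk WT. The Bai1 Tg pos libraries held 1708, 1802 and 1770 CPM, and the Bai1 Tg neg libraries 1637, 1658, 1734 and 1685 CPM. Of the Mertk KO libraries, 3 were below every Mertk WT library, and the fourth lay within the Mertk WT range. Clic6 had the smallest spread of the 9 genes.

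Aqp1 (ENSMUSG00000004655, chromosome 6, 55336432 to 55348555, plus strand) encodes a water channel. It was counted at 41 to 212 fragments per library, so that counting error alone is sizeable. The values were 7.63, 3.56, 5.47 and 3.89 CPM in Mertk KO, beside 6.73, 7.14, 9.35 and 7.28 CPM in Mertk WT. In Bai1 Tg pos they were 4.12, 12.6 and 4.59 CPM, and in Bai1 Tg neg 3.16, 4.71, 3.26 and 4.39 CPM. Bai1 Tg pos 2 was highest of all, and the Mertk WT libraries were above all 4 of Bai1 Tg neg. Among the other aquaporins, Aqp11 was highest at 19 TPM and Aqp2 was at 0 counts in every library.

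Of the pump and transporters, Atp1b1 (ENSMUSG00000026576, chromosome 1, 164437109 to 164458355, minus strand) encodes the beta subunit that carries the sodium pump to the membrane. It was at 816, 912, 838 and 803 CPM in Mertk KO, compared with 884, 1142, 914 and 993 CPM in Mertk WT. It stood at 1139, 965 and 973 CPM in Bai1 Tg pos, compared with 944, 970, 961 and 1027 CPM in Bai1 Tg neg. Of the Mertk KO libraries, 3 were below every Mertk WT library, and Mertk WT 2 and Bai1 Tg pos 1 were again highest.

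Slc12a2 (ENSMUSG00000024597, chromosome 18, 57878678 to 57946821, plus strand) encodes the sodium-potassium-chloride cotransporter of the apical membrane. Its values were 200, 199, 211 and 186 CPM in Mertk KO, compared with 163, 229, 200 and 196 CPM in Mertk WT. The Bai1 Tg pos libraries held 193, 200 and 175 CPM, and the Bai1 Tg neg libraries 187, 177, 189 and 190 CPM. Mertk WT held both the lowest and the highest library. Slc12a4, a potassium-chloride cotransporter, was the most abundant other member of that family at 142 TPM.

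Slc4a2 (ENSMUSG00000028962, chromosome 5, 24423837 to 24440950, plus strand) encodes a chloride-bicarbonate exchanger. It was at 1271, 1393, 1503 and 1413 CPM in Mertk KO, compared with 1392, 942, 1271 and 1393 CPM in Mertk WT. It stood at 1136, 1131 and 1232 CPM in Bai1 Tg pos, compared with 1166, 1158, 1190 and 1169 CPM in Bai1 Tg neg. Mertk WT 2, the library highest in Kcnj13 and Atp1b1, was lowest of all in Slc4a2. Slc26a7 (ENSMUSG00000040569, chromosome 4, 14502430 to 14621805, minus strand), an anion exchanger and channel, was at 507, 435, 397 and 452 CPM in Mertk KO, beside 411, 579, 440 and 547 CPM in Mertk WT. In Bai1 Tg pos it was at 519, 579 and 493 CPM, and in Bai1 Tg neg at 509, 504, 517 and 552 CPM. The 2 highest Slc26a7 libraries were Mertk WT 2 and Bai1 Tg pos 2, and the groups overlapped.

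**Figure D2:**
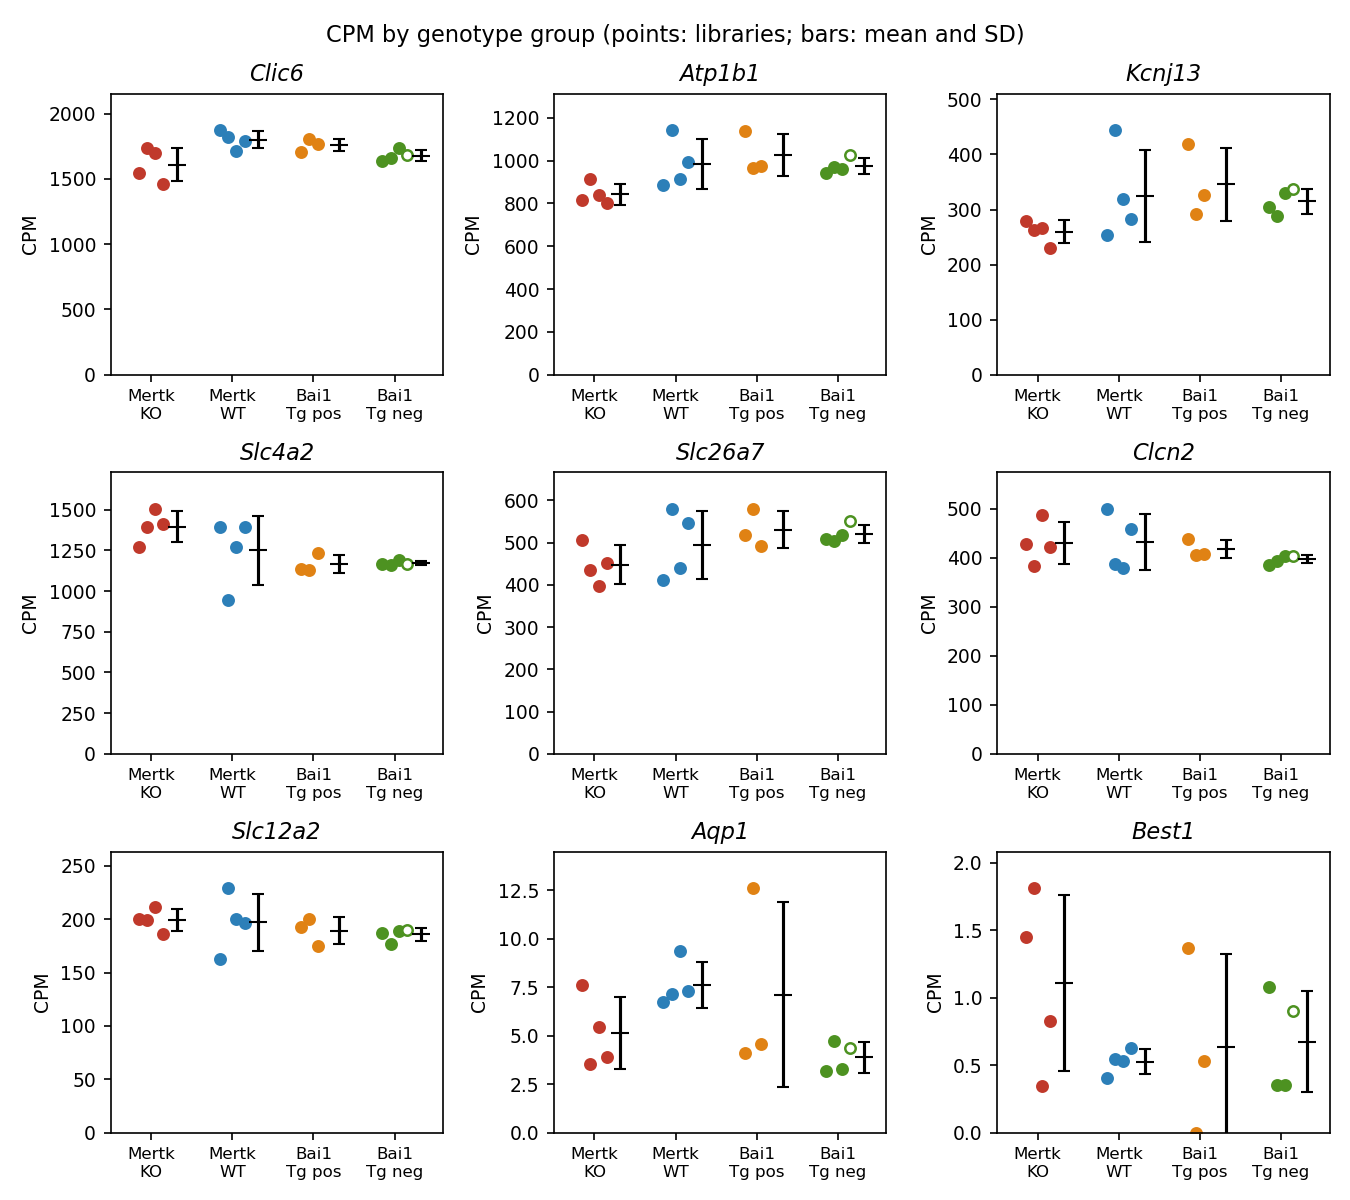
CPM (vertical axes, each from 0) of each gene in the libraries of the 4 groups (points, the open one being the library labelled Bai1 Tg neg 4), with group mean and SD beside them (the SD bar of Best1 in Bai1 Tg pos is cut at 0). Clic6 in Mertk KO reaches down to 1460 CPM, and Aqp1 in Bai1 Tg pos up to 12.6 CPM.

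Mertk KO was set against Mertk WT first. No gene of the 9 changed past an adjusted p of 0.05 in edgeR's quasi-likelihood test: 0 of 8 tested, Best1 being too low to be tested, where 0.223% of all 13447 genes tested did so. Of the 8, 3 had an unadjusted p under 0.05, as had 750 of all genes tested, and DESeq2 called none of the 8 either. The median log2 fold change of the 8 was -0.16, beside -0.00097 for all genes tested. Values were below 0 for 6 genes and above 0 for 2. No gene had Mertk KO and Mertk WT libraries that did not overlap, a pattern that 3.52% of genes showed.

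Among the channels and the water channel, Aqp1 averaged 5.14 ± 1.86 CPM in the knockout and 7.62 ± 1.17 CPM in controls (SD, n = 4 each), which is a log2 fold change of -0.57 with an SE of 0.25 (edgeR adjusted p = 0.861). For Kcnj13 the log2 fold change was -0.33, SE 0.15 (edgeR adjusted p = 0.893), and without Mertk WT 2 it was -0.15. Much of the lower mean of Kcnj13 thus rested on that 1 high control library. Clic6 gave -0.17, SE 0.075, and Clcn2 -0.01, SE 0.11 (edgeR adjusted p = 0.89 and 0.99). The 95% interval of Clic6 ran from -0.33 to -0.0047, and that of Clcn2 from -0.24 to 0.22.

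Of the pump and transporters, Atp1b1 had the smallest adjusted p of the 8 genes. It averaged 842 ± 48.5 CPM in the knockout and 983 ± 115 CPM in controls (SD, n = 4 each), which is a log2 fold change of -0.23 with a 95% interval of -0.41 to -0.042 (edgeR adjusted p = 0.758). Slc12a2 differed by 0.01 with an interval of -0.2 to 0.22, and Slc4a2 by 0.15 with an interval of -0.11 to 0.41. Slc26a7 gave -0.15, with an interval of -0.39 to 0.096. None of these 4 differences passed after adjustment over all genes tested, although the interval of Atp1b1 did not include 0. Without Mertk WT 2 the value was 0.03 for Slc4a2, -0.07 for Slc26a7, 0.09 for Slc12a2 and -0.15 for Atp1b1. Without Mertk KO 3 that of Slc26a7 was -0.09, without Mertk WT 4 it was -0.09, and without Mertk WT 1 the Slc12a2 value changed sign to -0.07, as it did without Mertk KO 3 (-0.02).

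For the Bai1 transgene the count was also 0, of 9 genes tested with edgeR, against 0.0144% of 13855 genes (2 genes). Both of these 2 genes were lower in Bai1 Tg pos, so Adgrb1 itself was not called. Bai1 Tg neg 4, at 144 CPM of Adgrb1, was among the controls of that fit. The count of 0 under the labels therefore says little about the transgene. One of the 9 genes had an unadjusted p under 0.05, as had 718 of all genes tested, and DESeq2 called none of the 9. Without the library labelled Bai1 Tg neg 4 the count stayed 0, of 8 genes tested, beside 0.0369% of 13562 genes. Aqp1 had the largest fold change, at 7.11 ± 4.77 CPM in Bai1 Tg pos (SD, n = 3) and 3.88 ± 0.785 CPM in Bai1 Tg neg (SD, n = 4). Its values overlapped between the groups. Its log2 fold change was 0.88, SE 0.36 (edgeR adjusted p = 0.948), and without Bai1 Tg pos 2 it was 0.17, so a single library carried most of it. Without Bai1 Tg neg 4 it was 0.95.

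For the remaining 8 genes the log2 fold change was 0.14 for Kcnj13, 0.08 for Clcn2, 0.07 for Clic6 and 0.08 for Atp1b1. It was 0.03 for Slc12a2, 0.03 for Slc26a7, -0.0014 for Slc4a2 and -0.16 for Best1. None of them passed, and without Bai1 Tg neg 4 the values ranged from -0.00098 (Slc4a2) to 0.17 (Kcnj13), with Best1 not tested. For Clcn2 the lowest of the 3 Bai1 Tg pos values, 406 CPM, was above the highest of the 4 in Bai1 Tg neg, 404 CPM, a lack of overlap that 6.2% of the genes tested showed. Its 95% interval was -0.055 to 0.21, or -0.063 to 0.23 without Bai1 Tg neg 4, and its edgeR adjusted p was 0.958. Clic6 and Slc4a2 had the narrowest intervals, -0.052 to 0.2 and -0.13 to 0.13. For Best1 the interval of -2.17 to 1.85 spans large changes of either sign, and none was detectable at this depth.

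**Figure D3:**
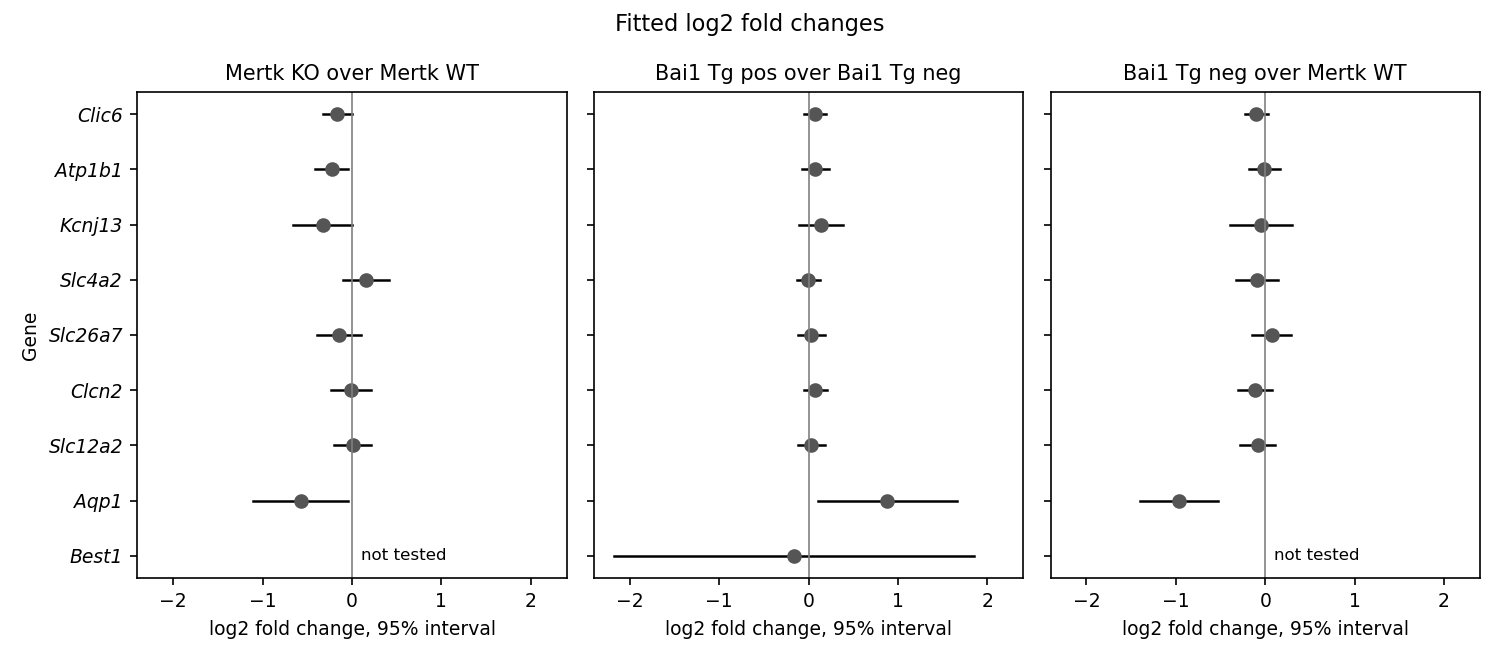
Fitted log2 fold changes (points, horizontal axes) with 95% intervals (lines) of each gene in 3 comparisons; Best1 was not tested in 2 of them. Only the Aqp1 intervals lie wholly on 1 side of 0 in all 3 panels, at -0.57, 0.88 and -0.97, and no adjusted p passed 0.05.

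The 2 control groups were also set side by side, since both are wild type for Mertk and neither should carry the transgene. They differ in the first number of a library tag of unstated meaning (12 in all Bai1 libraries, 17 or 21 in the Mertk libraries) and in rod marker level, and these cannot be told apart from the set. By edgeR 0 of 8 genes passed, against 0.431% of 13459 genes, with 1 of the 8 at an unadjusted p under 0.05, beside 1076 of all genes tested. Aqp1 came nearest, lower in Bai1 Tg neg by -0.97 on the log2 scale, SE 0.2 (edgeR adjusted p = 0.0667). All 4 Bai1 Tg neg libraries, at 3.16 to 4.71 CPM, were below all 4 Mertk WT libraries, at 6.73 to 9.35 CPM, as was the case in one direction or the other for 5.74% of genes. DESeq2 called Aqp1 (adjusted p = 0.00253), as did edgeR without a filter on low counts (adjusted p = 0.0152). With a covariate for rod marker level the edgeR adjusted p was 0.708 at a log2 fold change of -0.83, and without Bai1 Tg neg 4 it was 0.11 at -1.03. Adjusted p over the 17 alternatives ran from 0.00253 to 0.708, and all 17 gave the same direction. Among them, leaving out Mertk WT 4 and keeping only Mertk WT of tag number 17 are 1 and the same fit. The other 7 genes lay between -0.12 (Clcn2) and 0.07 (Slc26a7), all with edgeR adjusted p of at least 0.745. With the rod covariate these values ran from -0.49 (Slc4a2) to 0.73 (Kcnj13), and none passed.

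Whether the genes differed in the same way between Mertk KO and Mertk WT as between the transgene groups was tested as a contrast over all 15 libraries. By edgeR 0 of 9 passed, against 0.103% of 14520 genes, although 4 of the 9 had an unadjusted p under 0.05 (1093 of all genes tested). These 4 were Aqp1, with a difference of -1.45 on the log2 scale (edgeR adjusted p = 0.368), Kcnj13 with -0.46 (0.657), Atp1b1 with -0.30 (0.501) and Clic6 with -0.24 (0.512). Without Bai1 Tg pos 2 the Aqp1 difference was -0.74, and without Mertk WT 2 that of Kcnj13 was -0.28. Without Bai1 Tg neg 4 the 4 values were -1.52, -0.50, -0.33 and -0.24 in the same order. DESeq2 called none of the 9.

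Bai1 Tg pos 2 stood apart in other genes too. Together with the highest Aqp1 it held no Best1 fragment, and its markers of ciliary body and iris epithelium, which express Aqp1 strongly, summed to 10.9 CPM against 0.154 to 2.06 CPM elsewhere. Of the 5 markers listed, 4 were in the table, led by Wnt2b and Zic1, and all 4 were detected in that library. All 4 were also detected in Bai1 Tg pos 1, where Msx1 was higher than in Bai1 Tg pos 2 (1.08 against 0.357 CPM). Wnt2b, at 1.01 CPM in Bai1 Tg pos 2, was at 1.04 CPM in Mertk WT 4. The high sum came mostly from Zic1 and Zic2. Zic1 was at 7.61 CPM in Bai1 Tg pos 2 and at most 0.687 CPM elsewhere, with 0 counts in 11 libraries. Zic2 was at 1.9 CPM in Bai1 Tg pos 2 and at most 0.135 CPM elsewhere. Smooth muscle and pericyte markers, led by Acta2 and Cspg4, summed to 502 CPM in that library and to 251 to 368 CPM in the others. Their part in the Aqp1 value was not tested. Outside Bai1 Tg pos 2, Aqp1 ranged from 3.16 to 9.35 CPM and the ciliary and iris markers summed to at most 2.06 CPM. These markers summed to 0.401 to 1.04 CPM in Mertk WT, beside 0.154 to 0.781 CPM in Bai1 Tg neg. Any relation between the 2 was not tested.

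**Figure D4:**
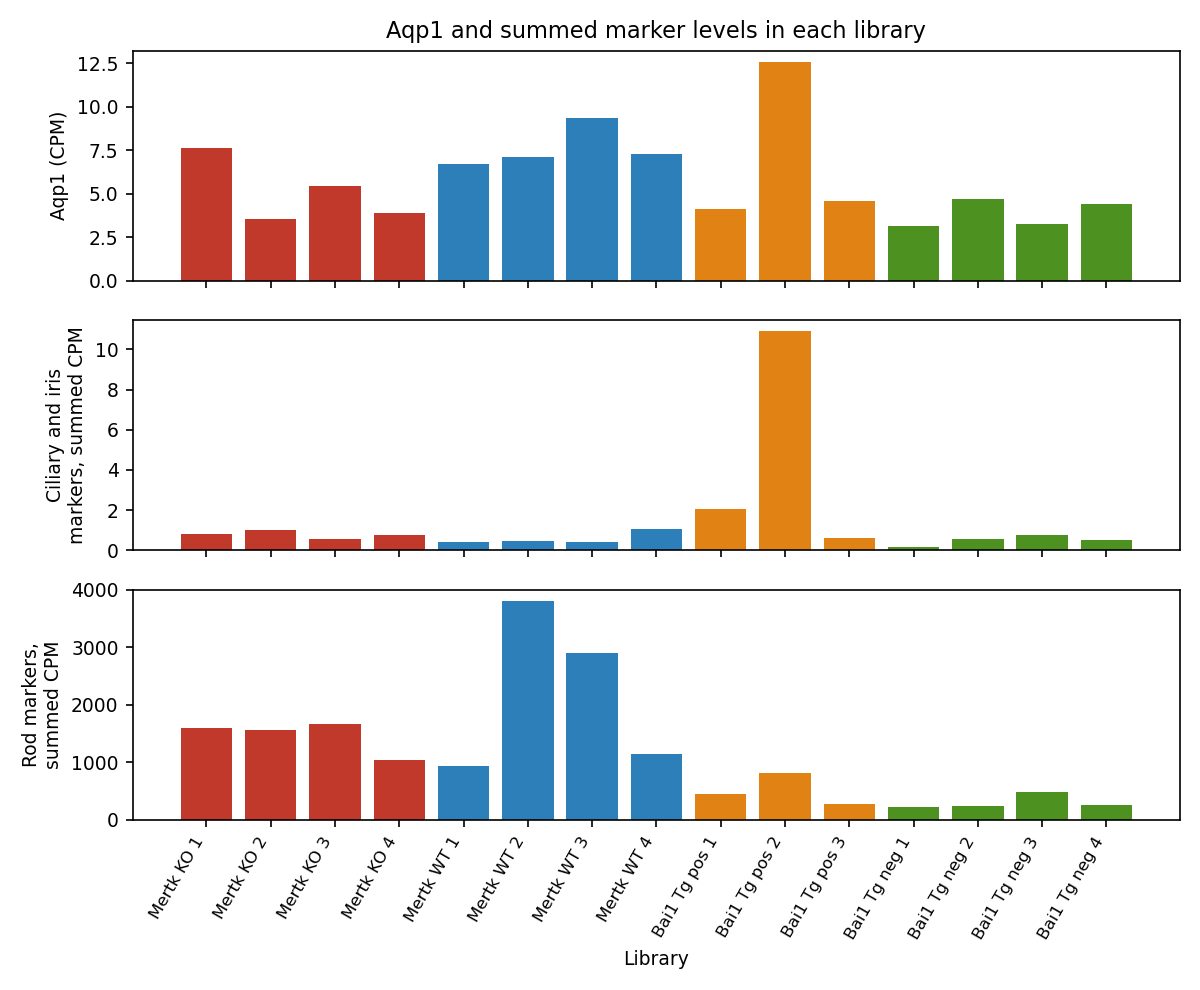
Aqp1 (top), the summed ciliary body and iris markers (middle) and the summed rod markers (bottom) in CPM on linear axes, as bars for each of 15 libraries coloured by group. Bai1 Tg pos 2 is highest in the upper 2 panels, at 12.6 and 10.9 CPM, and Mertk WT 2 in the lowest, at 3811 CPM.

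Spread between libraries of a group differed among the genes. The within-group SD of log2 CPM, on 11 residual degrees of freedom, was 0.072 for Clic6, 0.12 for Atp1b1, 0.12 for Slc12a2 and 0.13 for Clcn2. It was 0.15 for Slc4a2, 0.16 for Slc26a7, 0.23 for Kcnj13, 0.49 for Aqp1 and 0.98 for Best1. Among the 500 genes of most similar level, 91% had a smaller SD than Kcnj13 and 85.6% a smaller SD than Aqp1, but only 14.6% a smaller SD than Clic6. Kcnj13 was thus among the more variable genes of its level and Clic6 among the steadier ones. Mertk WT 2 deviated most in Kcnj13 (0.48 above its group mean on the log2 scale), Atp1b1 (0.22 above) and Slc4a2 (0.39 below, that is -0.39). That library also had the highest rod marker sum, 3811 CPM, and the highest Rpe65, 6667 CPM, and whether either plays a part in these deviations was not tested.

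**Figure D5:**
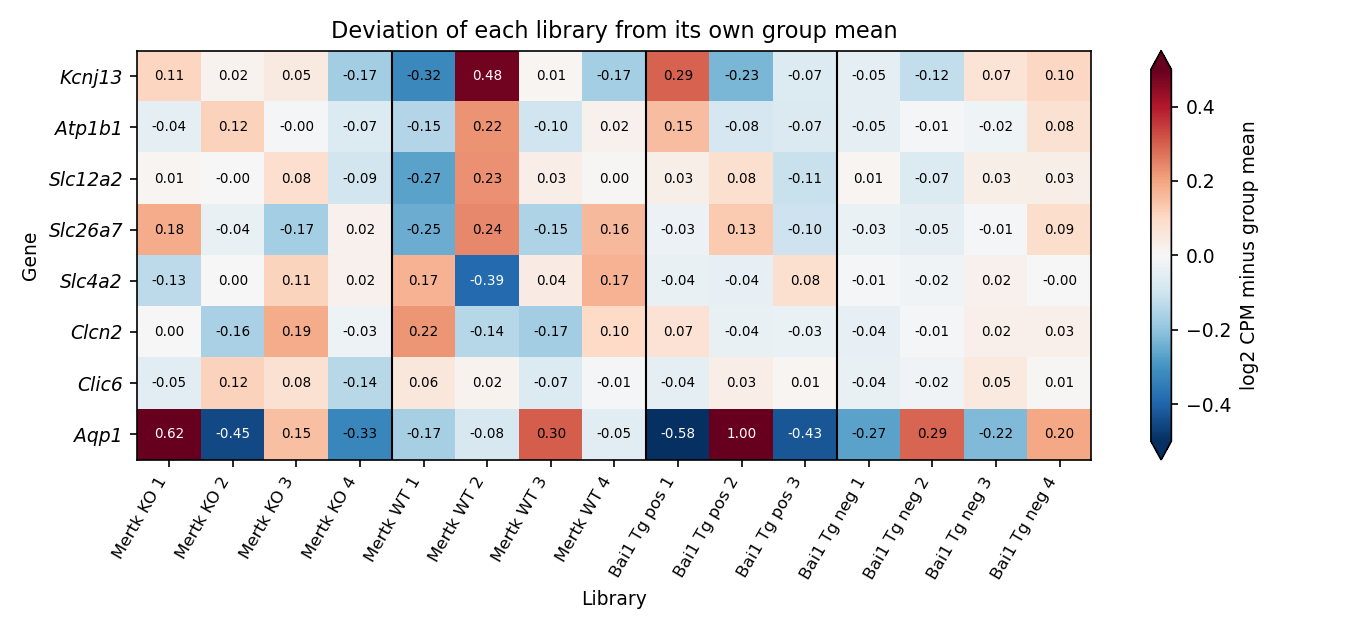
Deviation of log2 CPM from the mean of the library's own group (colour) for each gene except Best1 (rows) in each of 15 libraries (columns). The colour scale ends below the largest deviation shown, that of Aqp1 in Bai1 Tg pos 2, at 1. Mertk WT 2 is high in Kcnj13, at 0.48, and low in Slc4a2, at -0.39.

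Deviations from group means were then compared between genes, as a description over 15 libraries that share their preparation and depth. Kcnj13 deviated with Atp1b1 (Pearson correlation 0.814, Spearman rank correlation 0.693) and with Slc12a2 (Pearson 0.729, Spearman 0.586), and against Slc4a2 (Pearson -0.748, Spearman -0.475). The rank correlations were weaker in each case, and Mertk WT 2 is the farthest library in 3 of these 4 genes. Slc12a2 deviated with the rod marker level (Pearson 0.75, Spearman 0.804). For the other genes, Best1 left out, the Pearson correlation with the rod marker level ran from -0.565 (Slc4a2) to 0.478 (Kcnj13). Of 12786 genes with a mean of at least 1 CPM, those most like Kcnj13 were Ldha, a lactate dehydrogenase subunit (Pearson r 0.908), and Car12, a carbonic anhydrase (r 0.893). For Slc4a2 they were Tecpr1 (r 0.976) and Ppp1r16a (r 0.973), and for Slc26a7 Ube2v2 (r 0.955) and Cltrn (r 0.943). For Clcn2 they were Polm and Atxn7l2, for Clic6 Ccnd1 and Fhdc1, for Aqp1 Osgin2 and Gm37305, for Atp1b1 Ank and Rpp40, and for Slc12a2 Ccne1 and Spc25, with r from 0.873 to 0.954. These are descriptions of 15 libraries, with no test. Each partner was picked for the highest r among 12786 genes in these same libraries, so a high r follows in part from the picking. Ccne1, Spc25 and Rpp40 averaged only 1.76, 1.58 and 2.22 CPM. When the 2 farthest libraries were left out, r fell to 0.847 for Ldha and 0.616 for Spc25 but stayed at 0.936 for Ppp1r16a and 0.965 for Cltrn.

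The wider transport genes of the RPE were taken from 9 lists by function. By level, Car14, a carbonic anhydrase, led with 1874 TPM, followed by Slc4a5, a sodium-bicarbonate cotransporter, with 1561 TPM and Slc9a3r1, a scaffold of apical transporters, with 1236 TPM. Slc24a5, a cation exchanger of melanosomes, stood at 337 and Ano10, of the anoctamin family, at 94.7 TPM. In Mertk KO against Mertk WT, edgeR called 0 of 85 tested, with 10 at an unadjusted p under 0.05 and 2 called by DESeq2. Over all 13447 genes it called 0.223%, with 750 at an unadjusted p under 0.05, and DESeq2 called 77. The median log2 fold change was -0.044, with 33 genes above 0 and 52 below. For the transgene edgeR called 0 of 84, with 4 at an unadjusted p under 0.05 and none called by DESeq2. Over all 13855 genes edgeR called 0.0144%, with 718 at an unadjusted p under 0.05, and DESeq2 called 26. Without Bai1 Tg neg 4 edgeR called 0 of 83, beside 0.0369% of all genes. In the contrast of the 2 effects edgeR called 0 of 87, with 12 at an unadjusted p under 0.05 and 1, Slc4a4, called by DESeq2. Over all 14520 genes edgeR called 0.103%, with 1093 at an unadjusted p under 0.05, and DESeq2 called 78.

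The 2 wider genes that DESeq2 called in Mertk KO were Slc4a4 and Ano1, which were singled out after their values were seen. Slc4a4, the sodium-bicarbonate cotransporter of the apical RPE membrane, was at 39, 34.1, 36.6 and 30.5 CPM in Mertk KO and at 44.3, 65.1, 56.3 and 49.3 CPM in Mertk WT. Its groups did not overlap, as was the case for 3.52% of genes, and the log2 fold change was -0.62, SE 0.12 (edgeR adjusted p = 0.0834, DESeq2 adjusted p = 0.00234). It also passed in edgeR without a low-count filter, with the rod covariate, with all 15 libraries in the fit and without Mertk WT 1, where the adjusted p was 0.0355. It did not pass in the other 7 fits that left out 1 library (0.1 to 0.317), with limma-voom (0.0524), with the replicate block (0.204) or within tag number 17 (0.403). Nor did it pass in edgeR with RLE scaling (0.086), upper-quartile scaling (0.0795) or tag number as covariate (0.0616). Ano1, a calcium-activated chloride channel, was at 2.15, 2.01, 3.18 and 2.06 CPM in Mertk KO, beside 5.72, 6.49, 3.87 and 10.8 CPM in Mertk WT, again without overlap. Its log2 fold change was -1.51, SE 0.31 (edgeR adjusted p = 0.114, DESeq2 adjusted p = 0.00234), and it passed in edgeR without the filter and with all 15 libraries in the fit. It passed in none of the 8 fits that left out 1 library, where adjusted p ran from 0.0576 to 0.384. Nor did it pass with limma-voom (0.273), or in edgeR with RLE scaling (0.117) or upper-quartile scaling (0.1). In edgeR it also failed with the rod covariate (0.0824), tag number as covariate (0.135), the replicate block (0.339) and within tag number 17 (0.738). The endothelial marker sum also did not overlap between these groups, at 7.84 to 11.7 CPM in Mertk KO, compared with 13 to 23.2 CPM in Mertk WT, and its part in the Slc4a4 and Ano1 values was not tested. With the transgene Slc4a4 gave 0.15 and Ano1 -0.10, and without Bai1 Tg neg 4 they gave 0.21 and -0.205 (edgeR adjusted p = 0.988 for both). Over the 7 fits that left out 1 library, Slc4a4 ran from 0.03 (without Bai1 Tg pos 2) to 0.26 (without Bai1 Tg pos 1). Ano1 ran from -0.26 (without Bai1 Tg pos 1) to 0.06 (without Bai1 Tg pos 3), and it was also above 0 without Bai1 Tg neg 2 (0.04). In the contrast of the 2 effects neither passed in edgeR (edgeR adjusted p = 0.173 for Slc4a4 and 0.291 for Ano1), whereas DESeq2 called Slc4a4 (adjusted p = 0.0354).

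Between the control groups, 2 of 86 wider genes passed in edgeR, both lower in Bai1 Tg neg, beside 0.431% of all 13459 genes. An unadjusted edgeR p under 0.05 was found for 11 of the 86, beside 1076 of all genes tested. DESeq2 called 7, all lower (Kcnj14, Kcnv2, Ano2, Ttyh2, Slc12a5, Car2 and Cacnb2), of 249 over all genes. Ano2, a calcium-activated chloride channel of photoreceptor synapses, was at 0.385, 0.357, 0.781 and 0.349 CPM in Bai1 Tg neg and 1.95, 6.81, 3.34 and 1.14 CPM in Mertk WT, giving a log2 fold change of -2.85 (edgeR adjusted p = 0.047). Slc12a5, the potassium-chloride cotransporter of neurons, was at 5.31, 6.02, 6.39 and 4.24 CPM in Bai1 Tg neg and 8.68, 11.7, 12.7 and 9.37 CPM in Mertk WT, giving a log2 fold change of -0.96 (edgeR adjusted p = 0.0429). Neither overlapped between the groups, as was the case for 5.74% of genes. With a covariate for rod marker level Ano2 gave 0.09 and Slc12a5 -0.27 (edgeR adjusted p = 0.984 and 0.866), so the Ano2 value changed sign. Neither passed with all 15 libraries in the fit or without any 1 of Mertk WT 2, Mertk WT 3 and the 4 Bai1 Tg neg libraries, where adjusted p ran from 0.0604 (Slc12a5 without Bai1 Tg neg 3) to 0.211 (Ano2 without Bai1 Tg neg 1). With limma-voom Ano2 did not pass either (adjusted p = 0.0614), whereas Slc12a5 did (adjusted p = 0.0325). The rod marker sum moved with them, from 225 to 489 CPM in Bai1 Tg neg and from 928 to 3811 CPM in Mertk WT, and cannot be told apart from the set.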

How the data were processed

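RNA from the RPE of female mice was sequenced in 15 libraries. They were TruSeq libraries of poly-A RNA, per the labels' protocols, mapped to GRCm38 by STAR (version not stated), per the submitters' processing notes. The deposited values are raw counts per gene, which the authors made with featureCounts 1.5.0, per the file headers: fragments over exons, both ends mapped, strand ignored.

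From these counts, CPM and TPM were computed with TMM factors over all 15 libraries, TPM with the exon length given in the table. Symbols were found for 45143 genes, holding 99.91% of counts. Tests used edgeR 4.0.16 (TMM, filterByExpr, robust quasi-likelihood F test, two-sided) on the whole table, with Benjamini-Hochberg adjusted p-values called below 0.05, and the code was tested on simulated data. Alternatives were DESeq2 1.42.0, limma-voom 3.58.1, other scalings, no filter, rod level or tag number as covariate, a replicate block, all libraries in 1 fit and leaving out each library. No replicates were alike within sampling noise (lowest chi-square per degree of freedom 5.28). Samples with the same number were not paired by any label. The 9 genes and all lists were chosen with earlier results of these data known. Named genes are the 9, the most abundant of each wider list, up to 6 wider genes past the threshold per comparison, the 2 most abundant markers of each marker list used, and the 2 genes most like each of the 9. Others were chosen after their values were seen: Slc4a4, Ano1, Best2, Best3, Kcnj10, Aqp2, the genes DESeq2 alone called and the overlapping genes. Some genes that this rule names are not reported here.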

Additional observations from a re-analysis of the deposited data

How the results depend on the processing

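Over all alternatives run, none of the 9 genes passed the threshold in Mertk KO against Mertk WT, for the transgene or in the contrast of the 2 effects. Aqp1 between the control groups was the exception given above: it passed with DESeq2 (-0.968, adjusted p = 0.00253) and without the low-count filter (-0.963, adjusted p = 0.0152). Some values near 0 changed sign, such as Kcnj13 with the transgene, at -0.0295 without Bai1 Tg pos 1, and the cause was not tested. Mean TPM was recomputed only with RLE scaling, and moved by less than the SD over all 15 libraries. Within-group SDs of log2 CPM were recomputed only without Bai1 Tg neg 4. That of Kcnj13 went from 0.231 to 0.239, and that of Best1 from 0.979 to 1.01.

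Counts of all genes past the threshold moved more. For Mertk the count of 30 became 77 with DESeq2, 69 without the filter and 14 within tag number 17, and 16 (without Mertk KO 4) to 31 when 1 library was left out. For the transgene the count of 2 became 26 with DESeq2, 85 without the filter, 0 with limma-voom, 1 with the rod covariate, 0 with all libraries in 1 fit, and 0 to 54 when 1 library was left out, 54 being without Bai1 Tg pos 3, 0 without Bai1 Tg neg 3, 1 without Bai1 Tg neg 1 and 5 without Bai1 Tg pos 1, Bai1 Tg pos 2 or Bai1 Tg neg 4. Between the control groups the count of 58 became 249 with DESeq2, 138 without the filter, 0 with the rod covariate and 89 with Mertk WT of tag number 17 alone, and 13 to 89 when 1 library was left out (13, 15 and 28 without Bai1 Tg neg 1, 2 or 4, and 88 and 89 without Mertk WT 1 or 4). The count of 89 is from 1 fit, since Mertk WT of tag number 17 alone leaves out only Mertk WT 4. For the contrast the count of 15 became 78 with DESeq2, 37 without the filter, and 12 to 31 when 1 library was left out (31 without Bai1 Tg pos 3, 26 without Mertk WT 1). With the replicate number as a block the counts were 24 for Mertk, 12 for the contrast, 4 for the transgene and 106 between the control groups. Correlations of same-numbered samples ran from -0.106 to 0.241 across genes and were not over 0.1 for every pair, so the numbers were not taken as pairs. The highest was that of Mertk KO 4 and Mertk WT 4, which alone share the first tag number 21.

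At these depths Best1, with at most 27 counts in a library, gives no usable fold change, and Aqp1, with 41 to 212, only a wide one. With 3 or 4 libraries per group, small changes of the other genes could be missed.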
